A study of Mus musculus with 4 samples.

Results

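The 10 genes described here encode secreted cytokines outside the interleukin-1 (IL-1) family (*Il6*, *Il10*, *Il12b*, *Il23a*, *Il27*, *Lif*, *Osm* and *Tgfb1*) and the secreted defence proteins serum amyloid A3 (*Saa3*) and lipocalin-2 (*Lcn2*). They were chosen by name, with earlier results of these data known, and all 10 were found once among the 55356 genes of the expression table. RNA sequencing covered 4 libraries, 1 for each condition, of immortalized mouse bone marrow-derived macrophages. All of these cells lack the endogenous kinase MK2 (gene *Mapkapk2*), carry a retroviral vector and were sorted for GFP. In i*MK2*-KO +*GFP* the vector was empty, and in i*MK2*-KO +*MK2*, whose genotype GEO's labels give as wt, it carried *MK2*. The lines are called empty-vector and *MK2*-rescued cells below. Each line was left untreated (UT) or received recombinant murine IL-1α at 5 ng/mL for 1 h. Each genotype is therefore represented by a single virally transduced line, and the age and sex of the source animals are not stated for it.

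With 1 library per condition there is no replicate check and no test between conditions. The values are normalized read counts, rounded to whole numbers. Their 95% intervals take 1 normalized count as about 1 read, since the reads behind a value are not given, and they cover counting error only. A gene at 3 normalized counts or fewer is called at the floor, because a count of 0 allows up to about 3 reads. Fold values are plain ratios of normalized counts, and log2 ratios have 1 added to each count. The 4 libraries summed to between 24891906 and 25733071 normalized counts, with 17840 to 18152 genes above 0. *Mapkapk2* read 561 in UT and 1585 in IL-1α-treated empty-vector cells, against 38357 and 38141 in *MK2*-rescued cells. The lines thus differed as labelled, although the empty-vector line was not at 0. The 9 macrophage markers summed to between 116628 and 131317 in the 4 libraries, a sum led by *Lyz2*. Single markers differed between the lines, as *Mertk* read 421 and 364 in empty-vector against 1093 and 1168 in *MK2*-rescued cells, *Adgre1* 3978 and 4140 against 6832 and 6330, *Fcgr1* 1226 and 1194 against 2108 and 2216, and *Cd14* 3652 and 8072 against 1962 and 2250. Of the 7 neutrophil markers 4 were at 0 throughout, and the list summed to 5 to 9, while all 5 fibroblast and all 3 mast cell markers were at 0. Markers of T cells (1 to 14) and B cells (0 to 2) were also near 0. The 3 dendritic cell markers summed to 23 and 21 in empty-vector and 106 and 116 in *MK2*-rescued cells. Nearly all of this was *Zbtb46* (23 and 18 against 104 and 115), with *Flt3* at 0 and *Xcr1* at 3 or fewer. The part of these marker differences in the results was not tested. In such bulk libraries, fewer expressing cells and less RNA per cell cannot be told apart.

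Macrophages that sense microbes or IL-1 secrete cytokines in waves. IL-6, leukemia inhibitory factor (LIF), oncostatin M (OSM) and IL-27 signal through receptors that contain gp130 and activate STAT3, IL-12 and IL-23 share the p40 subunit encoded by *Il12b*, and IL-10 and TGF-β1 restrain inflammation. Serum amyloid A and lipocalin-2 belong to the acute-phase response. MK2 is the kinase downstream of p38 that phosphorylates tristetraprolin (*Zfp36*), a protein that binds AU-rich elements in the 3′ UTRs of cytokine mRNAs and speeds their decay.

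The promoters of *Saa3*, *Il6* and *Lcn2* are printed so that the gene with the largest response can be set beside a cytokine and an acute-phase gene that stayed near 0. Each holds 250 bases before to 50 bases after the RefSeq transcription start in GRCm38.p6, read 5′ to 3′, with matches to a κB, C/EBP or AP-1 motif in capitals. They lie at chr7:46715627-46715926 on the minus strand for *Saa3*, chr5:30012864-30013163 on the plus strand for *Il6* and chr2:32387690-32387989 on the minus strand for *Lcn2*.
Saa3: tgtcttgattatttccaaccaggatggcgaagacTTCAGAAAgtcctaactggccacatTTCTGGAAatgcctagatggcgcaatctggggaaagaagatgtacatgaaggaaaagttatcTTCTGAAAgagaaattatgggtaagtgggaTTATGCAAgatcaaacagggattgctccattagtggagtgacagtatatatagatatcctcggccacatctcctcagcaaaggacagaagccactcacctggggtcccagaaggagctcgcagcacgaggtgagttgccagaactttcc
Il6: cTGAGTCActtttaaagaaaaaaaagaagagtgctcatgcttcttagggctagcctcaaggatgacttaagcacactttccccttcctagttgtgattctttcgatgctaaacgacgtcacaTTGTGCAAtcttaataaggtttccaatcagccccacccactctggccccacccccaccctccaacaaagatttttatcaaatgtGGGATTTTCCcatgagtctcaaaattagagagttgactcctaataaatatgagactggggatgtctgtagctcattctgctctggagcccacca
Lcn2: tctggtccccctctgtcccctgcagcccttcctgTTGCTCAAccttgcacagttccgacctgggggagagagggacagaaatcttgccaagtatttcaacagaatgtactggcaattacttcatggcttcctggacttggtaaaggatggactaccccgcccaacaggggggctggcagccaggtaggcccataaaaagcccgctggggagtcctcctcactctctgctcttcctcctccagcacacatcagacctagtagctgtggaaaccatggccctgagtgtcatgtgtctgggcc

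The search was for the κB consensus by name, the C/EBP core TTGCGCAA, its looser form TTNNGNAA, which includes it, the AP-1 site TGANTCA and the TATA box TATAAA, on both strands and with overlaps allowed. Positions are counted from the transcription start, upstream negative. The *Saa3* window held 4 matches to TTNNGNAA, at -216, -191, -129 and -99, and none to the κB consensus. Of 32544 mouse promoters of this length, 40.7% held such a match and 0.860% held 4 or more. The cutoff of 4 is the number that the *Saa3* window itself held, so this share is a description and no test. The *Il6* window held the κB match at -44, a TTNNGNAA match at -128 and an AP-1 match at -249, where 8.49% of promoters held a κB match and 7.79% an AP-1 match. In *Lcn2* the search gave 1 TTNNGNAA match, at -216. Outside the printed windows, *Lif* held a κB match at -178 and an AP-1 match at -228, *Tgfb1* a κB match at -140, and *Il12b* none of these motifs. TTGCGCAA (0.184% of promoters) and TATAAA (13.6%) were in none of the 6 windows that could be searched. Promoter windows matched 6 of the 10 genes, and *Il10*, *Il23a*, *Il27* and *Osm* had no entry. A match is a description of the letters and not an occupied site.

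The 10 genes separated into those that were well expressed and those that were hardly detected. Transforming growth factor *Tgfb1* and *Osm* were present in all 4 libraries, *Saa3* rose steeply with IL-1α in the empty-vector line, and the other 7 genes stayed at 7 normalized counts or fewer in every library. *Il6*, *Il10*, *Il12b* and *Il23a* stayed at the floor in all 4 libraries, so that in both lines they were still there after 1 h of IL-1α. In the *MK2*-rescued line *Il27*, *Lif* and *Lcn2* were also at the floor after IL-1α, making 7 of the 10 genes, whereas in empty-vector cells these 3 read 4, 7 and 5.

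**Figure D1:**
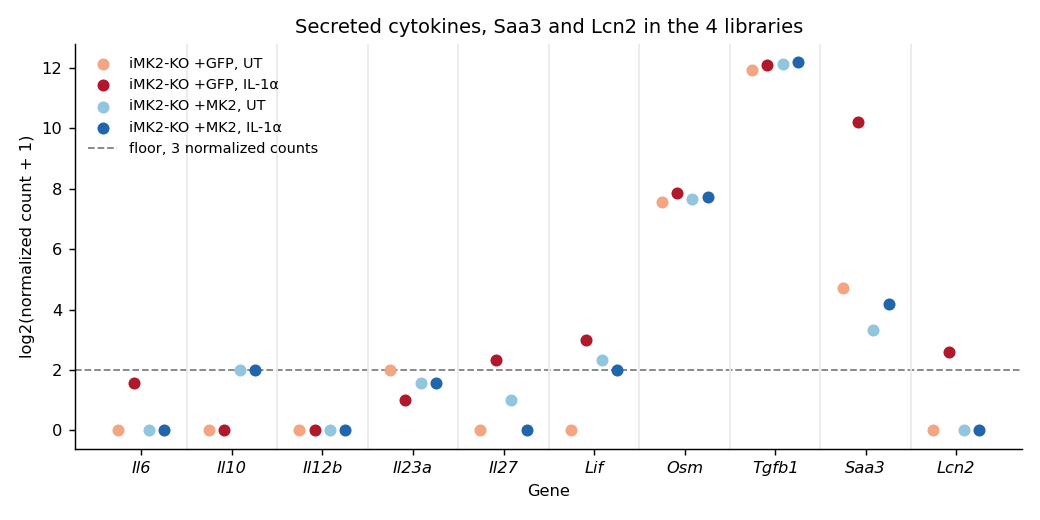
The 10 genes are on one axis and log2(normalized count + 1) on the other, with 1 point for each of the 4 libraries and no error bars, since each condition has 1 library. *Tgfb1* (3878 to 4646) and *Osm* (187 to 231) barely separate by library, *Saa3* reaches 1180 in IL-1α-treated empty-vector cells against 9 to 25 elsewhere, and the other 7 genes lie at 7 or below.

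Serum amyloid A3 is the form of this acute-phase apolipoprotein that mouse macrophages make outside the liver. *Saa3* (ENSMUSG00000040026.9) read 25 in UT and 1180 in IL-1α-treated empty-vector cells, and 9 and 17 in the same conditions of *MK2*-rescued cells. One library stood far above the other 3. As Poisson intervals these counts were 16.2 to 36.9, 1114 to 1249, 4.12 to 17.1 and 9.90 to 27.2, so the interval of the IL-1α-treated empty-vector library lay clear of the rest, whereas those of the UT libraries overlapped slightly.

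After IL-1α, *Saa3* was 69.4-fold higher in empty-vector than in *MK2*-rescued cells, a log2 ratio of 6.04 (interval 5.43 to 6.90). Ordered from the highest ratio, *Saa3* was in position 9 of the 12483 genes whose mean reached 10 normalized counts. The difference without IL-1α was smaller, 2.78-fold or 1.38 on the log2 scale (0.33 to 2.76), in position 263. IL-1α raised *Saa3* by 47.2-fold in empty-vector cells, with a log2 ratio of 5.51 (4.99 to 6.19) in position 5. In *MK2*-rescued cells the ratio was 1.89-fold, or 0.85 (-0.33 to 2.27), an interval that includes no change. The log2 responses of the lines differed by 4.66, which was not tested for want of replicates.

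Per kilobase of its 555-base coding transcript, the *Saa3* level in the 4 libraries was 45.0, 2126, 16.2 and 30.6 in the order given above. On that scale the IL-1α-treated empty-vector library held slightly more *Saa3* than *Tgfb1*, at 1994 per kilobase of its 2175-base transcript. Dividing by all annotated exon bases instead gave 453 for *Saa3* and 860 for *Tgfb1*, so the order of these levels depends on the length used. The 3 other serum amyloid genes, *Saa1*, *Saa2* and *Saa4*, were at 0 in every library. *Saa3* lies at chr7:46361422-46365124 in the deposited positions, whose build is not settled and which mostly differ from GRCm38. Its closest neighbour *Saal1*, 1.32 kb away, read 891 and 914 in empty-vector and 760 and 782 in *MK2*-rescued cells, UT and IL-1α. Thus *Saal1* moved little where *Saa3* moved most.

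The 3 genes whose centred log2 values over the 4 libraries lay closest to those of *Saa3*, of 12482 compared by Euclidean distance, were *Ccrl2* (0.65), *Il1b* (0.69) and *Pde4b* (0.84). *Ccrl2*, a chemerin-binding receptor, read 1 and 72 in UT and IL-1α-treated empty-vector cells and 0 in both *MK2*-rescued libraries. *Il1b* read 47 and 2007 against 15 and 52. The cAMP phosphodiesterase *Pde4b* read 70 and 2404 against 20 and 75. With 4 points per gene, this likeness is a description.

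Lipocalin-2 binds bacterial siderophores and withholds iron. *Lcn2* (ENSMUSG00000026822.15, chr2:32274645-32278264 as deposited) was 0 in both UT libraries and in IL-1α-treated *MK2*-rescued cells, and 5 in IL-1α-treated empty-vector cells. With the 0 set to the floor of 3, the observed 5 was 1.67-fold higher, which is not a lower bound. The counting interval of the log2 ratio started at -0.13, so a difference could not be detected with so few reads.

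Of the 4 gp130 cytokines among the 10 genes, *Il6*, *Lif*, *Osm* and *Il27*, only *Osm*, whose product acts on stromal and liver cells, read above 10. *Osm* (ENSMUSG00000058755.4, chr11:4186420-4191026) read 187 and 231 in UT and IL-1α-treated empty-vector cells and 201 and 212 in *MK2*-rescued cells. These values lay close together. The lines differed by -0.10 (-0.40 to 0.19) untreated and 0.12 (-0.15 to 0.40) after IL-1α on the log2 scale. IL-1α changed *Osm* by 0.30 (0.020 to 0.59) in empty-vector cells, or 1.24-fold, and by 0.08 (-0.21 to 0.36) in *MK2*-rescued cells. The first interval narrowly excluded 0, and it no longer did when each normalized count was taken as 0.7 reads. Scaling the libraries to the same total or to *Gapdh* lowered that response to 0.26, for which the interval was not recomputed.

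*Lif* (ENSMUSG00000034394.15, chr11:4207557-4222514), which lies 16.5 kb from *Osm*, encodes a cytokine that keeps mouse embryonic stem cells undifferentiated. It read 0 and 7 in UT and IL-1α-treated empty-vector cells and 4 and 3 in *MK2*-rescued cells. With the 0 set to the floor of 3, the observed response in empty-vector cells was 2.33-fold, which is not a lower bound. The counting interval for the log2 ratio started at 0.53. It started at -0.13 when each normalized count was taken as 0.7 reads, so this call rests on the reads assumed per count. Between the lines after IL-1α the ratio was 2.33-fold, with a log2 interval of -0.91 to 3.81, and was thus not separable by counting error. The neighbouring genes therefore differed in level, *Osm* being expressed in all 4 libraries and *Lif* nowhere above 7.

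*Il27* (ENSMUSG00000044701.6, chr7:126188182-126194113) encodes the p28 subunit of IL-27, a cytokine that restrains T cell inflammation. It read 0 and 4 in UT and IL-1α-treated empty-vector cells and 1 and 0 in *MK2*-rescued cells, with a counting interval for the response in empty-vector cells that started at -0.60. The gene overlaps *Apobr*, which read 1038 to 1575, and how reads in the overlap were counted is not stated. *Ebi3*, the partner subunit of p28, was expressed and read 101 and 143 against 31 and 39. It was higher in empty-vector cells by 1.67 (1.11 to 2.33) untreated and 1.85 (1.35 to 2.42) after IL-1α on the log2 scale.

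*Il6* (ENSMUSG00000025746.12, chr5:30218112-30224979), the main inducer of acute-phase proteins in liver, read 0 in 3 libraries and 2 in IL-1α-treated empty-vector cells. *Il12b* (ENSMUSG00000004296.15, chr11:44290890-44304860), the shared p40 subunit, was 0 in all 4. *Il23a* (ENSMUSG00000025383.3, chr10:128132008-128134621), the p19 subunit of IL-23, read 3 and 1 in UT and IL-1α-treated empty-vector cells and 2 in both *MK2*-rescued libraries. No fold is given for these genes. With all of their values at or below the floor of 3, a small change could not be seen at this depth. In IL-1α-treated empty-vector cells the Poisson intervals ended at 7.22 for *Il6*, 3.69 for *Il12b* and 5.57 for *Il23a*.

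*Il10* (ENSMUSG00000016529.6, chr1:130947582-130952711), the anti-inflammatory cytokine, was 0 in both empty-vector libraries and 3 in both *MK2*-rescued libraries, all at the floor. The endogenous *Mapkapk2* gene lies 28.7 kb away, but its counts may include reads of the *MK2* vector, which cannot be told apart here from reads of the locus. Of 14 genes within 200 kb, 5 reached 10 in some library. Besides *Mapkapk2* these were *Gm37084* (12, 30, 4 and 7 in UT and IL-1α-treated empty-vector and then *MK2*-rescued cells), *Dyrk3* (795 to 1099), *Eif2d* (1159 to 1266) and *Rassf5* (1205 to 1249). On its other side *Il19*, 79.7 kb away, read 1, 1, 0 and 0, and the related cytokine genes *Il20* and *Il24* were 0. *Il10*, *Il19*, *Il20* and *Il24* were thus at the floor in both lines, and *Dyrk3*, *Eif2d* and *Rassf5* read similar values in them.

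**Figure D2:**
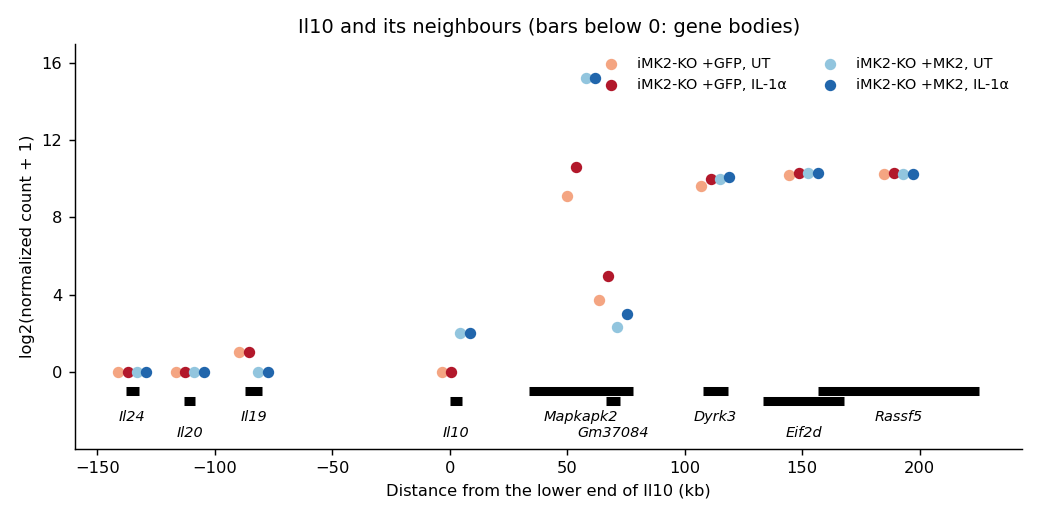
Distance from the lower end of *Il10* in kb is plotted against log2(normalized count + 1), with 1 point per library set side by side for visibility and black bars for gene bodies. The *Mapkapk2* counts (561 and 1585 against 38357 and 38141) are drawn at the endogenous gene but may include reads of the vector, *Dyrk3*, *Eif2d* and *Rassf5* lie between 795 and 1266 in all libraries, and the 4 interleukin genes lie at 3 or below.

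TGF-β1 is made as a latent protein that must be activated outside the cell. *Tgfb1* (ENSMUSG00000002603.16, chr7:25386427-25404502) read 3878 and 4336 in UT and IL-1α-treated empty-vector cells and 4456 and 4646 in *MK2*-rescued cells. All 4 values lay close together. Per kilobase of coding transcript the level of *Tgfb1* was 1783 to 2136 and that of *Osm* 82.3 to 102. The log2 ratio of *Tgfb1* in empty-vector to *MK2*-rescued cells was -0.20 (-0.26 to -0.14) untreated and -0.10 (-0.16 to -0.040) after IL-1α. The responses to IL-1α were 0.16 (0.098 to 0.22) and 0.06 (0.00064 to 0.12). The counting intervals exclude 0, except that the last reached -0.011 at 0.7 reads per normalized count. Scaling to the same total lowered that last response to 0.049, for which the interval was not recomputed. Without replicates, differences this small cannot be set against the variation between cultures. By the distance used for *Saa3*, the closest patterns were *Gm26621*, *Tmem161b* and *Atg13* for *Osm* (distances 0.011, 0.012 and 0.025) and *Rbm4*, *Zfp54* and *Nsmce2* for *Tgfb1* (0.015, 0.017 and 0.019).

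**Figure D3:**
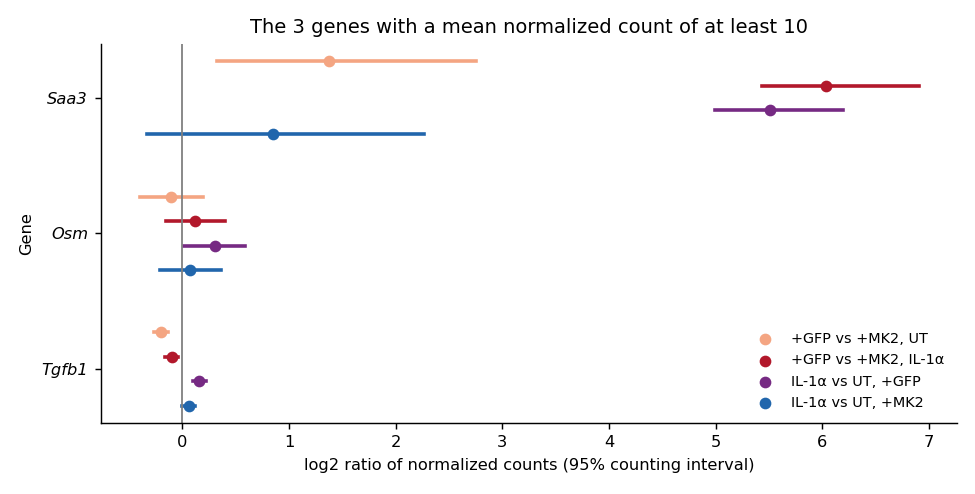
Log2 ratios of *Osm*, *Tgfb1* and *Saa3* are drawn for the 4 comparisons, with bars for the 95% counting intervals. *Saa3* lies at 6.04 between the IL-1α-treated lines and at 5.51 for the response of empty-vector cells, whereas *Osm* and *Tgfb1* lie between -0.20 and 0.30 in every comparison.

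A mean of at least 10 normalized counts was reached by 3 of the 10 genes, *Osm*, *Tgfb1* and *Saa3*. Of these 3, only *Saa3* was at least 2-fold higher in untreated empty-vector than in *MK2*-rescued cells and none was 2-fold lower, where 3.51% and 5.26% of all 12483 genes were. After IL-1α the counts were again 1 higher and 0 lower, against 4.16% and 5.57% of all genes. In the response of empty-vector cells 1 rose and 0 fell, against 2.25% and 1.59%, and in that of *MK2*-rescued cells 0 rose and 0 fell, against 0.889% and 1.03%. The median log2 ratios of the 3 genes were -0.10, 0.12, 0.30 and 0.08 in this order, and those of all genes 0.021, 0.031, 0.014 and 0.0083. Both comparisons within a treatment share libraries with the responses and are not independent of them.

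Of the 7 genes at the floor in untreated empty-vector cells, 3 were above it after IL-1α, where 1.54% of all genes and 2.24% of protein-coding genes at the floor moved in that way. In the *MK2*-rescued line 0 of 6 did, against 1.38% of all genes and 2.03% of protein-coding genes. The 3 genes reached only 4 to 7 normalized counts, and with a floor of 5 only *Lif* was left. Being at the floor was common, as 39990 of the 55356 genes (72.2%) were there in all 4 libraries. These genes include noncoding ones and pseudogenes. Of 21876 protein-coding genes, 10715 were at the floor in untreated empty-vector cells and 10526 in untreated *MK2*-rescued cells. How many were there in all 4 libraries was not counted for protein-coding genes alone.

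The related lists below were chosen with earlier results of these data known, and the shares of all genes given above are the comparison for their counts. For counts at the floor, that share includes noncoding genes and so overstates how common the floor is among protein-coding genes. Several receptors and partner subunits of these cytokines were expressed. Of 13 gp130-family genes, 7 were at the floor throughout, among them the LIF and OSM receptor subunits *Lifr* and *Osmr* at 0, and 5 reached a mean of 10. gp130 itself, *Il6st*, read 1782 and 1977 in UT and IL-1α-treated empty-vector cells against 2272 and 2300 in *MK2*-rescued cells, and the IL-6 receptor *Il6ra* read 1526 and 1201 against 1150 and 1165. Among these 5 genes, the only 2-fold difference between the lines apart from *Ebi3* was in the IL-11 receptor subunit *Il11ra1*, at 106 and 73 against 586 and 532, or -2.46 (-2.78 to -2.17) untreated on the log2 scale. None of the 5 responded 2-fold to IL-1α in either line, while the IL-27 receptor *Il27ra*, below that mean, read 0 and 1 against 2 and 6. The medians over the 5 genes of the log2 ratios were -0.12 and 0.04 between the lines and -0.03 and 0.02 for the responses.

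In the IL-12 and IL-10 families, 6 of 10 partners and receptors were at the floor throughout, including *Il12a*, the p35 partner of p40, and the IL-23 receptor *Il23r*, both at 0. The ligand-binding IL-10 receptor chain *Il10ra* read 431 and 671 in UT and IL-1α-treated empty-vector cells against 96 and 106 in *MK2*-rescued cells. It was higher by 2.15 (1.84 to 2.50) untreated and by 2.65 (2.36 to 2.97) after IL-1α on the log2 scale, and was the only 2-fold difference of the 4 genes with a mean of 10. The second chain *Il10rb*, at 1749 to 2179, and the IL-12 receptor chain *Il12rb2*, at 509 to 596, varied little. The group medians were -0.24 and -0.12 between the lines and 0.14 and 0.02 for the responses. Of 15 other interleukins, 13 were at the floor throughout, and the remaining *Il15* (94 to 118) and *Il16* (188 to 304) did not differ 2-fold.

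For the TGF-β pathway, 16 of 22 genes reached a mean of 10 and 4 were at the floor throughout. Its receptors *Tgfbr1* (1246 to 1280) and *Tgfbr2* (1575 to 1721) and the latency protein *Nrros* (2089 to 2425) were similar in all 4 libraries. *Skil*, a repressor of SMAD signalling, was the only gene of the 16 to rise 2-fold with IL-1α, from 757 to 2023 in empty-vector cells, by 1.42 (1.30 to 1.54), against 543 and 678 in *MK2*-rescued cells. It was also the only one at least 2-fold higher in empty-vector cells after IL-1α, by 1.58 (1.45 to 1.70). The inhibitory *Smad7*, at 19 and 22 against 132 and 82, and the co-receptor *Eng*, at 13 and 15 against 37 and 38, were at least 2-fold lower in empty-vector cells in both conditions. The group medians were close to 0, at -0.0016, -0.037, 0.053 and 0.040.

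Downstream, 13 of 14 JAK-STAT genes reached a mean of 10. *Stat3*, the main effector of gp130, read 2278 and 2257 in UT and IL-1α-treated empty-vector cells and 2089 and 2286 in *MK2*-rescued cells. *Socs3*, the feedback inhibitor of gp130 signalling, rose from 110 to 1167 in empty-vector cells and read 182 and 185 in *MK2*-rescued cells. Its log2 response was 3.40 (3.12 to 3.70) in the first line and 0.02 (-0.28 to 0.33) in the second. In the IL-1α-treated empty-vector library, where *Socs3* was highest, *Osm* read 231, *Lif* 7, *Il27* 4, *Il6* 2 and *Il10* 0. *Cish*, at 5 and 15 against 11 and 13, was the other gene of the list to respond 2-fold, by 1.42 (0.05 to 3.40), and the interval of its UT log2 ratio between the lines was -3.01 to 0.50. The inhibitors *Socs1* (3 and 3 against 18 and 16) and *Socs2* (40 and 31 against 258 and 276) were lower in empty-vector cells in both conditions, *Socs1* at the floor there with an untreated interval of -4.99 to -0.81. The group medians were 0.18 and 0.19 between the lines and 0.0031 and 0.031 for the responses.

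A list of 24 other acute-phase and antimicrobial genes also held receptors such as *Tlr2* and *Lrp2*. Of these 24, 16 were at the floor throughout and 5 reached a mean of 10. Among these 5, 3 were at least 2-fold higher in untreated empty-vector cells and 4 after IL-1α, while 0 were lower. The receptor *Tlr2* was among the 4. Of all 12483 genes, 3.51% and 4.16% were higher, and 5.26% and 5.57% lower. *Hp* and *Slpi* reached a mean of 10 only through the empty-vector line. *Lrp2*, a receptor for lipocalin-2 that read 2 and 2 against 13 and 14, missed it. The direction of the count over these 5 genes is therefore partly set by the filter. Haptoglobin, *Hp*, read 32 and 48 in UT and IL-1α-treated empty-vector cells against 2 and 4. The secreted protease inhibitor *Slpi* read 106 and 98 against 3 and 4, and complement *C3* read 230 and 298 against 109 and 91. Their log2 ratios between the untreated lines were 3.46 (2.03 to 7.11), 4.74 (3.56 to 7.44) and 1.07 (0.74 to 1.42), those of *Hp* and *Slpi* against values at the floor. With 1 added to each count, none of the 3 responded 2-fold to IL-1α. The receptor *Tlr2* behaved differently, rising from 1630 to 9796 in empty-vector cells (2.59, 2.51 to 2.66) against 1187 and 1651 in *MK2*-rescued cells (0.48, 0.37 to 0.58). *Lyz2*, the lysozyme gene of macrophages, read 59858 to 64591 in all 4 libraries. The medians over these 5 genes were 1.07 and 2.57 between the lines and 0.37 and 0.32 for the responses. The value of 2.57 is the ratio of *Tlr2* itself.

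Regulators of *Il6*, *Il12b* and *Lcn2* were expressed, while these target genes read 5 or fewer in every library. Of 20, none was at the floor throughout and 19 reached a mean of 10. In empty-vector cells 6 rose at least 2-fold with IL-1α and 0 fell, against 2.25% and 1.59% of all 12483 genes. In *MK2*-rescued cells 2 rose and 0 fell, against 0.889% and 1.03%. Between the untreated lines, 1 was at least 2-fold higher in empty-vector cells (*Irf4*, 116 against 43) and 3 were lower. Of all genes, 3.51% and 5.26% were. After IL-1α 5 were higher and 3 lower, against 4.16% and 5.57% of all genes. *Nfkbiz*, which encodes IκBζ, a nuclear cofactor for *Il6* and *Lcn2*, read 190 and 9664 in UT and IL-1α-treated empty-vector cells and 183 and 526 in *MK2*-rescued cells, with responses of 5.66 (5.46 to 5.88) and 1.52 (1.28 to 1.77). *Zc3h12a*, the endoribonuclease Regnase-1 that degrades *Il6* and *Il12b* mRNA, read 160 and 1590 against 104 and 268, with responses of 3.30 (3.08 to 3.56) and 1.36 (1.03 to 1.71). These 2 genes were the ones that rose in both lines.

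The other 4 rose 2-fold in empty-vector cells, namely the Regnase relative *Zc3h12c* by 2.78, the NF-κB cofactor *Bcl3* by 2.13, *Zfp36* by 2.00 and the stress factor *Atf3* by 1.20 on the log2 scale. *Zfp36* read 641 and 2569 in UT and IL-1α-treated empty-vector cells against 788 and 814 in *MK2*-rescued cells. The C/EBP factors differed among themselves. *Cebpb* (1777 and 2713 against 1627 and 1776) and *Cebpd* (153 and 269 against 184 and 177) changed by less than 2-fold, while *Cebpa* was lower in empty-vector cells at 19 and 20 against 431 and 415. The factor *Maf*, an activator of *Il10*, was lower as well, at 34 and 25 against 1546 and 1298, or -5.47 (-6.04 to -5.02) untreated on the log2 scale. *Arid5a*, which stabilizes *Il6* mRNA, read 117 and 178 against 645 and 713. The group medians were -0.11 and 0.57 between the lines and 0.60 and 0.05 for the responses.

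**Figure D4:**
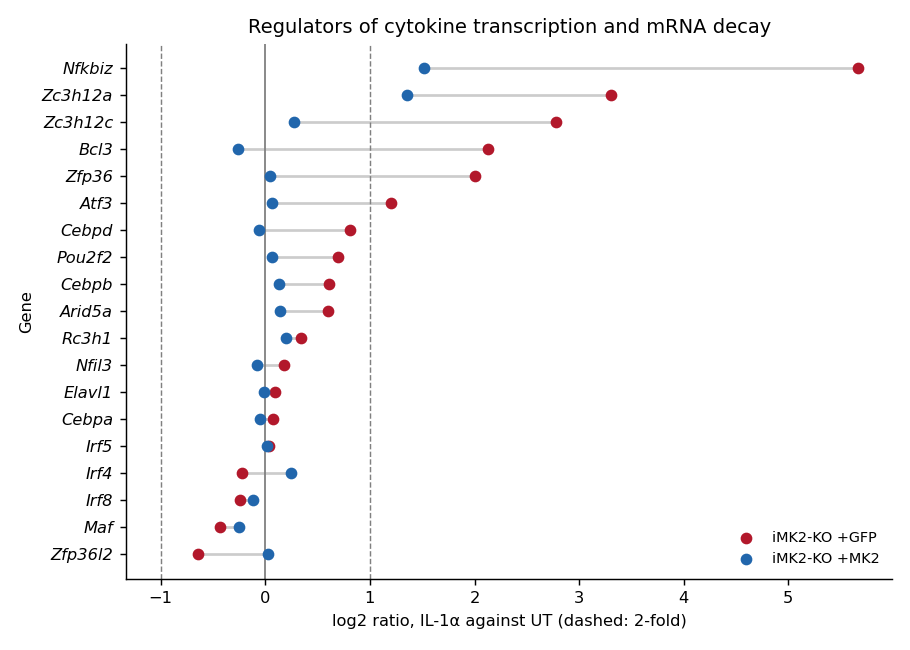
Log2 responses to IL-1α of the regulators of *Il6*, *Il12b* and *Lcn2* are drawn with 1 point for each line. *Nfkbiz* (5.66 and 1.52) and *Zc3h12a* (3.30 and 1.36) lie above 1 in both lines, and *Zc3h12c*, *Bcl3*, *Zfp36* and *Atf3* lie above 1 in empty-vector cells and between -0.26 and 0.27 in *MK2*-rescued cells.

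Since tristetraprolin and Regnase-1 act on 3′ UTRs, the AU-rich pentamer ATTTA was counted in the 3′ UTR of 1 coding transcript for each gene. This search was chosen after the expression values were seen. A pentamer was present in 8 of the 10 genes, against 61.6% of 20658 genes with a 3′ UTR, and absent from the 128-base 3′ UTR of *Saa3* and the 232-base 3′ UTR of *Lcn2*, where 16.4% and 28.2% of UTRs of similar length (within 20%) held one. *Tgfb1* had 1. The other 7 genes had 5 or more, and of the 7 genes with a mean under 10 all but *Lcn2* had one. *Saa3*, the gene of the set with the largest response, and *Lcn2*, which read 5 or fewer, both had none, as did most UTRs of similar length.

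Windows of 30 bases from 5 of the 3′ UTRs are printed to show how the elements lie, with the pentamers in capitals, in GRCm38 and 5′ to 3′ on the strand of the gene. They are chr5:30019677-30019706 (+) for *Il6*, chr11:44413473-44413502 (+) for *Il12b*, chr7:126589090-126589119 (-) for *Il27*, chr11:4240939-4240968 (+) for *Osm* and chr11:4272414-4272443 (+) for *Lif*.
Il6: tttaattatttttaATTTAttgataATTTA
Il12b: ATTTAagtaATTTAtgtATTTAttaATTTA
Il27: ccagatATTTAtttcttggatATTTATTTA
Osm: aatccgttttatATTTAtaaggcctATTTA
Lif: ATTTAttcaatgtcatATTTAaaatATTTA

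With 5 pentamers in 285 bases, *Il27* had a number that 0.289% of UTRs of similar length reached. For 6 pentamers this share was 0.519% in *Il6* (427 bases), 1.43% in *Il23a* (657 bases), 1.87% in *Il10* (706 bases), 2.35% in *Il12b* (774 bases) and 5.08% in *Osm* (1017 bases). *Lif*, with 7 in 3180 bases, was ordinary for its length at 39.1%. The longer element TTATTTATT, which holds 1 pentamer, was found once in *Il23a* and 2 times each in *Il27* and *Lif*, and in 6.92% of all 3′ UTRs. *Osm* carried as many pentamers as *Il6*, and read 187 or more in every library. Whether the pentamers bear on these levels was not tested.

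**Figure D5:**
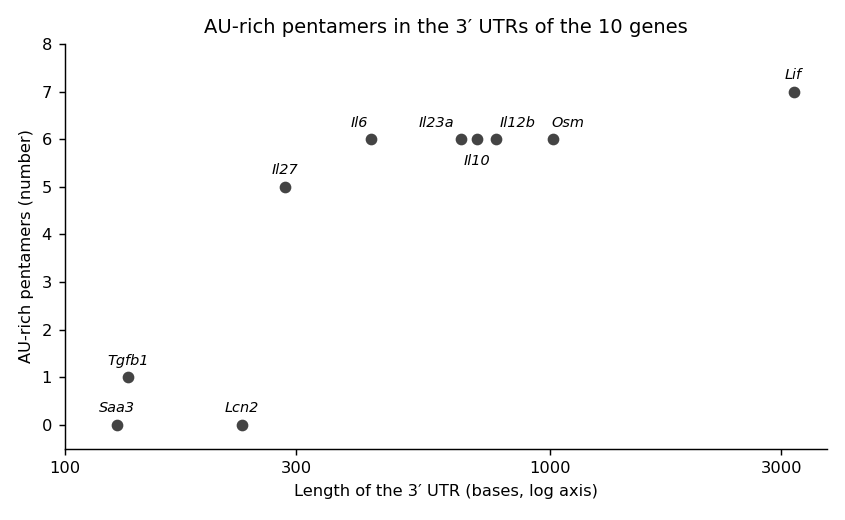
The length of the 3′ UTR in bases (log axis) is plotted against the number of AU-rich pentamers for the 10 genes, 1 point per gene. *Saa3* and *Lcn2* lie at 0, *Tgfb1* at 1 and the other 7 genes at 5 to 7, with *Lif* longest at 3180 bases.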

How the data were processed

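RNA was sequenced from 4 libraries, 1 per condition. Values are DESeq2 normalized counts, rounded and deposited by the authors as a whole-number score per gene. DESeq2 and GRCm38 are named in the submitters' processing notes. Of 52080 gene IDs shared with GENCODE M21 (GRCm38), 1494 had the same start and end and 51501 the same span. Most deposited positions are therefore not GRCm38 ones, and their build is not settled. They cannot be combined with the GRCm38 coordinates of the printed sequences. Labels describe poly(A) selection with paired reads and the methods ribo-depletion with single reads. Aligner and size factors were not given in the sources used here.

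Ratios were log2(value + 1), with exact Clopper-Pearson intervals (Python 3.11.15, scipy 1.17.1) checked on simulated data. The simulation held counting error only and used means of at least 10. It therefore did not check the intervals of genes below that mean, or variation between cultures. A call was at least 2-fold among the 12483 genes whose mean reached 10. The 10 genes and 7 related lists (118 of 119 entries found) were chosen with earlier results of these data known. From the lists, up to 3 genes with the largest change in each direction per comparison were named. The targeted gene and the 3 nearest patterns were also named. Of the neighbours within 200 kb that reach 10, only some were named, after their values were seen. Other list genes were named after their values were seen. Alternatives were other scalings, pseudocounts, filters, floors and reads per count. Promoters are from RefSeq, 3′ UTRs from GENCODE M21.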

Additional observations from a re-analysis of the deposited data

Results flagged for a closer look

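*Ptpn6*, the phosphatase SHP-1 that restrains cytokine receptor signalling, was the only gene of the related lists whose response to IL-1α went in opposite directions in the lines with both counting intervals excluding 0. It read 6467 and 6803 in UT and IL-1α-treated empty-vector cells and 5659 and 5113 in *MK2*-rescued cells. The log2 response was 0.073 (0.02 to 0.12) in the first line and -0.146 (-0.20 to -0.09) in the second. The difference between these responses was not tested, as each condition has 1 library. Over the other scalings, added after seeing the data, the responses ranged from 0.028 to 0.073 and from -0.158 to -0.146. Counting intervals were not recomputed for these scalings, so the empty-vector response is not shown to stay clear of 0 there. How many of all genes meet the same rule was not counted.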

How the results depend on the processing

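Of 54 alternative values of the member counts, 48 were within 1.5 times the value given. Among the 3 genes with a mean of at least 10, calling those whose counting interval excludes 0, in place of a 2-fold change, gave 1 lower gene in both comparisons of the lines (0 before), 3 higher genes in the response of empty-vector cells (1 before) and 1 in that of *MK2*-rescued cells (0 before). With a floor of 5, 1 gene rose above it in empty-vector cells (3 before), and with a floor of 1, 1 gene was at it in all libraries (4 before). No log2 ratio changed direction. *Saa3* ranged over the scalings and pseudocounts from 1.10 to 1.42 and from 5.75 to 6.08 between the lines, and from 5.30 to 5.53 and from 0.65 to 0.88 for the responses. Scaling to *Gapdh* moved *Tgfb1* after IL-1α from -0.10 to -0.20. At 0.7 reads per normalized count the interval of *Lif* in empty-vector cells started at -0.13 and those of *Osm* (-0.035) and *Tgfb1* in *MK2*-rescued cells (-0.011) reached below 0, and at 1.3 reads that of *Lcn2* started at 0.24. Counting intervals were not recomputed for the other scalings. No paired analysis was possible because each condition has 1 library. Depth limits 7 of the 10 genes, whose values of 0 to 7 cannot show a small change.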

Other observations

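Around *Tgfb1*, 8 of 26 genes within 200 kb reached 10 in some library. Among them *Ceacam2*, an adhesion molecule gene 147 kb away, read 5 and 31 in UT and IL-1α-treated empty-vector cells and 0 in both *MK2*-rescued libraries, and the cytochrome P450 gene *Cyp2s1*, 97.4 kb away, read 2 and 1 against 143 and 173. *Tgfb1* itself stayed between 3878 and 4646. Within 200 kb of *Il27*, the stress protein gene *Nupr1* read 129 and 295 in empty-vector cells and 250 and 271 in *MK2*-rescued cells. *Ceacam2*, *Cyp2s1* and *Nupr1* were picked after the values of the neighbours were seen.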
